A study of Mus musculus with 6 samples.

Results

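The Cyp2c genes described here are 10 members of the mouse cytochrome P450 2C subfamily, chosen by name from the 55487 genes of the deposited tables. In the files 9 of them were found by symbol, and Cyp2c44 was found under its other name, Cyp2c23. All 10 lie on chromosome 19. The liver RNA came from male mice aged 8 weeks, kept on standard chow, 3 named WT (substrain BALB_cJ) and 3 named SCADD (substrain BALB_cBYJ, deficient in short-chain acyl-CoA dehydrogenase). Since every SCADD animal is also of the other substrain, genotype and substrain cannot be told apart. All members were measured in 20 mg pieces of frozen liver, a bulk tissue, in which fewer cells of a type and less RNA per cell cannot be told apart.

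Cyp2c enzymes sit in the endoplasmic reticulum of hepatocytes, hold a haem group and receive electrons from cytochrome P450 oxidoreductase. They oxidise drugs, steroids and polyunsaturated fatty acids, and several convert arachidonic acid to epoxides or hydroxylated products. Mouse Cyp2c70 also acts in bile acid metabolism, where it produces muricholic acids, which human liver makes little of. The mouse genes arose by repeated duplication, so that neighbouring copies are much alike and reads from them can match several genes.

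The label of a single cluster held for 9 members, which the GRCm38 annotation places between 39269405 and 40187333, a span of 0.918 Mb. Cyp2c44 stands apart, 3.82 Mb beyond the end of Cyp2c70, at 44005022 to 44029208. From the low to the high coordinate the order was Cyp2c29 (39269405 to 39330713, plus strand), Cyp2c38 (39389556 to 39463075, minus), Cyp2c67 (39608842 to 39649051, minus), Cyp2c68 (39688834 to 39741054, minus) and Cyp2c40 (39767071 to 39812814, minus). Then followed Cyp2c37 (39992424 to 40012243, plus), Cyp2c54 (40037940 to 40073827, minus), Cyp2c50 (40089688 to 40113950, plus) and Cyp2c70 (40153353 to 40187333, minus). All are annotated as protein-coding. The files name genes by Ensembl identifiers, such as ENSMUSG00000060613 for Cyp2c70, ENSMUSG00000067225 for Cyp2c54, ENSMUSG00000062624 for Cyp2c67, ENSMUSG00000074882 for Cyp2c68 and ENSMUSG00000025197 for Cyp2c44.

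The coding sequences show how close the copies are. The 60 coding bases below begin at the haem-binding signature that P450 enzymes share and cross an exon boundary. They are shown because the members that fell in SCADD livers include both near-identical and distant copies. Capitals mark bases that differ from Cyp2c67. Cyp2c68 has 0 differences from Cyp2c67 in this stretch, as does Cyp2c40, while Cyp2c54 has 10, Cyp2c50 has 9 and Cyp2c70 has 12. On GRCm38 the exonic parts lie within chr19:39609212-39615629 for Cyp2c67, chr19:39767441-39773833 for Cyp2c40, chr19:40038369-40040201 for Cyp2c54, chr19:40111408-40113483 for Cyp2c50 and chr19:40153708-40156732 for Cyp2c70.
Cyp2c67: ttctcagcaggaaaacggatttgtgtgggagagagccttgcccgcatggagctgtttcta
Cyp2c40: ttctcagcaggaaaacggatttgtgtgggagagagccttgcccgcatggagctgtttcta
Cyp2c54: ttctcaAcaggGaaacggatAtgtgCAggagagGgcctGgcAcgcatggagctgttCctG
Cyp2c50: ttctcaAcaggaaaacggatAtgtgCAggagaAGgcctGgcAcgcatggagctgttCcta
Cyp2c70: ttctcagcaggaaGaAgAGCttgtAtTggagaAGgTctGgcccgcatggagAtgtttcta

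Over the whole coding sequence Cyp2c67 and Cyp2c68 were 97.1% identical, Cyp2c37 and Cyp2c50 96.1%, and Cyp2c54 and Cyp2c50 95.2%. Cyp2c38 was 94.2% identical to Cyp2c39, a paralogue that lies between the members but is not one of them. Cyp2c70 had no close relative, with 69.8% identity to the nearest gene, Cyp2c55, and neither had Cyp2c44, with 66.8% identity to Cyp2c66. Of all windows of 100 bases in the annotated Cyp2c40 transcript, 44.1% occurred unchanged in a transcript of another Cyp2c gene. The share was 23.7% for Cyp2c67, 19.8% for Cyp2c68, 9.40% for Cyp2c50, 7.59% for Cyp2c54 and 4.70% for Cyp2c37, and 0% for Cyp2c29, Cyp2c38, Cyp2c70 and Cyp2c44. The longest unbroken run shared between coding sequences of Cyp2c40 and another gene, Cyp2c69, was 282 bases.

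Promoters are shown to set members that fell beside members that did not pass the test. RefSeq promoter entries (GRCm38.p6) matched 8 of the 10 members, all but Cyp2c54 and Cyp2c44. The 9 letters CAAAGTCCA, a known binding motif of the hepatocyte nuclear receptor HNF4-alpha, were searched on both strands in the 250 bases before each start. The motif was picked with the sequences and the results in view, so its share among Cyp2c entries is no test. It occurred in 126 of 32851 mouse promoter entries (0.384%) and, among the members, in those of Cyp2c67, Cyp2c68, Cyp2c40 and Cyp2c70. Over all Cyp2c entries it was in 6 of 14, the other 2 being those of Cyp2c69, which was tested and not called, and Cyp2c65, which had too few counts to be tested. The motif was thus not confined to genes called lower. Among the members that have it, Cyp2c40 was not called with unique counts (edgeR adjusted p = 0.124). Its call turned on the counting, as given below. Cyp2c69 had a log2 fold change of -0.76 (SE 0.43) at 6 to 36 unique counts per library, and Cyp2c65 had 0 to 5. Whether either of them fell cannot be told at such counts. In Cyp2c29, Cyp2c37 and Cyp2c50 the nearest match had 1 mismatch and in Cyp2c38 it had 2. Each line gives 61 bases with that best match in capitals. The stretches of the copies Cyp2c67, Cyp2c68 and Cyp2c40 are much alike and are not separate instances of the motif. The windows are Cyp2c67 chr19:39649133-39649193 (minus strand), Cyp2c68 chr19:39741144-39741204 (minus strand), Cyp2c40 chr19:39812825-39812885 (minus strand), Cyp2c70 chr19:40187316-40187376 (minus strand), Cyp2c29 chr19:39286950-39287010 (plus strand), Cyp2c37 chr19:39992282-39992342 (plus strand), Cyp2c50 chr19:40089592-40089652 (plus strand) and Cyp2c38 chr19:39463152-39463212 (minus strand). A match describes letters and is not a site of binding. The RefSeq starts of Cyp2c29, Cyp2c67 and Cyp2c70 lie inside the spans given above. The Cyp2c29 window lies wholly, and the Cyp2c70 window partly, within the annotated gene.
Cyp2c67: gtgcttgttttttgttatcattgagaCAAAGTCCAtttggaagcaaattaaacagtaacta
Cyp2c68: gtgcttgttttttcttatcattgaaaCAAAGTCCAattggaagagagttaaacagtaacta
Cyp2c40: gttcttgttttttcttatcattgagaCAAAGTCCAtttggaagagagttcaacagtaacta
Cyp2c70: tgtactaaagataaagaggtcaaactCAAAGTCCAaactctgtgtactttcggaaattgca
Cyp2c29: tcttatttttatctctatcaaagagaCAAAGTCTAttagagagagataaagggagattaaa
Cyp2c37: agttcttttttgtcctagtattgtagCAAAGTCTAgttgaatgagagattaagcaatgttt
Cyp2c50: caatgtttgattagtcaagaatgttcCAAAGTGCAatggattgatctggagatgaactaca
Cyp2c38: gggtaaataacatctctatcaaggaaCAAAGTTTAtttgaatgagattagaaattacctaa

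Between 23991104 and 27148756 reads fell in genes in the WT libraries, and between 16948986 and 23912744 in the SCADD libraries. Unmapped reads made up 13.6% to 16.4% of WT and 25.1% to 36.6% of SCADD libraries, and the part of this difference in the results below was not tested. Acads, the gene of the deficient enzyme, stood at 185, 166 and 196 CPM across WT livers 1 to 3 and at 99.3, 104 and 96.96 CPM across SCADD livers 1 to 3, lower in every library named SCADD. CPM here are uniquely mapped read counts divided by library size after TMM scaling, which adjusts for library size and composition. The hepatocyte markers Alb, Ttr, Apoa1, Apoc3, Tat and Ass1 summed to 97241 to 147962 CPM in WT and 88368 to 127702 CPM in SCADD, and 0 of these 6 were called (edgeR). Summed cholangiocyte markers were 44.7 to 52.1 CPM in WT and 28.9 to 41.1 CPM in SCADD, and summed endothelial markers 173 to 180 CPM in WT and 103 to 165 CPM in SCADD, with Lyve1 called lower. Neither of these sums overlapped between the groups. Kupffer cell sums (183 to 254 against 142 to 258 CPM), stellate cell sums (326 to 458 against 256 to 506 CPM), lymphocyte sums (0.638 to 4.12 against 1.32 to 1.63 CPM) and neutrophil sums (1.73 to 3.22 against 1.89 to 7.69 CPM) overlapped between the groups. Mpo, of the neutrophil list, was at 0. Their part in the Cyp2c results was not tested.

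Cyp2c70, Cyp2c54, Cyp2c68 and Cyp2c67 fell in SCADD livers, to between 0.255-fold and 0.555-fold of WT. By edgeR's quasi-likelihood test, at an adjusted p under 0.05 over 13498 genes, 4 of the 10 members were lower, against 2.80% of all tested genes. None was called higher, against 4.22% of all genes, and 0 members were higher at an unadjusted p under 0.05, with DESeq2 or with limma-voom. The groups did not overlap, with SCADD lower, for 5 members, Cyp2c40 being the fifth, against 13.1% of all genes. The median log2 fold change of the members was -0.53, against -0.00078 over all tested genes. Cyp2c29, Cyp2c50, Cyp2c37, Cyp2c38 and Cyp2c44 did not pass the test, and their groups overlapped. Cyp2c40 did not pass it either (edgeR adjusted p = 0.124), although its groups did not overlap.

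**Figure D1:**
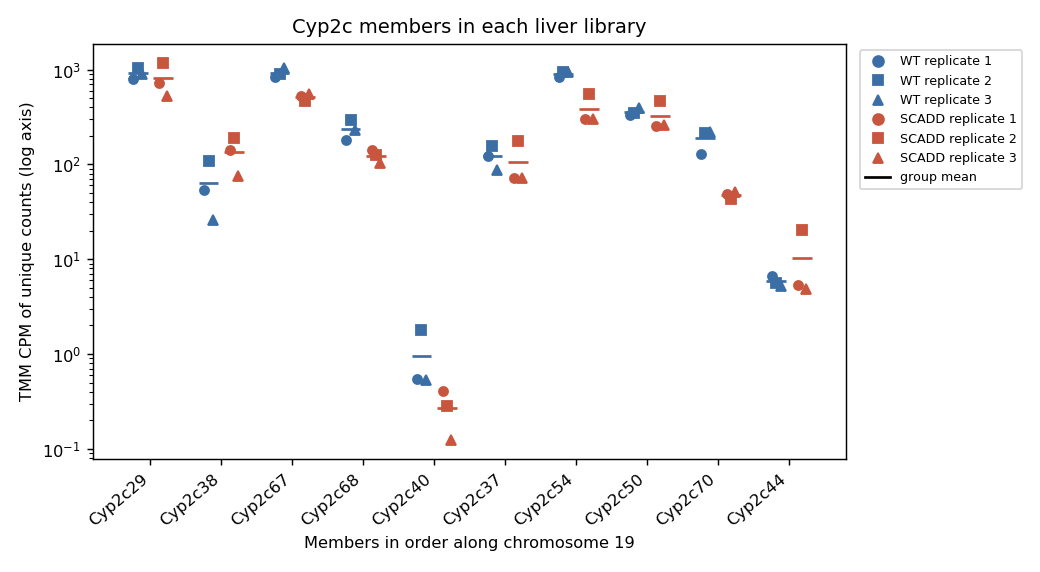
TMM CPM of unique counts on a log axis for each member, with WT libraries in blue, SCADD libraries in red, a symbol for each replicate number and a line at each group mean. The 3 SCADD libraries lie below the 3 WT libraries for Cyp2c67, Cyp2c68, Cyp2c40, Cyp2c54 and Cyp2c70.

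Cyp2c70, the muricholic acid enzyme, showed the largest fall among the called members. WT livers 1 to 3 held 130, 214 and 221 CPM of it, and SCADD livers 1 to 3 held 48.9, 43.6 and 51.2 CPM. The SCADD libraries were close together and all far below the lowest WT library. Cyp2c70 averaged 188 ± 50.2 CPM in WT and 47.9 ± 3.92 CPM in SCADD (SD, n = 3 each), and it fell by 1.97 on the log2 scale (SE 0.20 and adjusted p = 0.000351 by edgeR). Under 16 alternative settings its log2 difference lay between -2.19 and -1.84, and the gene was called in each of them. It was the only one of the 4 called members that passed without any library in turn. It is also the called member with 0% of windows of 100 bases shared with another Cyp2c transcript.

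Cyp2c54, an arachidonic acid epoxygenase, stood at 842, 938 and 941 CPM across WT livers 1 to 3 and at 305, 553 and 299 CPM across SCADD livers 1 to 3. All WT libraries were close to each other, and SCADD replicate 2 stood above the other SCADD libraries but below every WT library. It averaged 907 ± 56.1 CPM in WT and 386 ± 145 CPM in SCADD (SD, n = 3 each), and fell by 1.23 on the log2 scale (SE 0.24 and adjusted p = 0.0120 by edgeR). The call was lost without WT replicate 2 (adjusted p = 0.0616) or SCADD replicate 1 (adjusted p = 0.0514).

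Cyp2c67 stood at 836, 901 and 1034 CPM across WT livers 1 to 3 and at 528, 462 and 547 CPM across SCADD livers 1 to 3. The groups stood clear of each other and SCADD replicate 2, high for several other members, was the lowest here. Cyp2c67 averaged 924 ± 101 CPM in WT and 512 ± 44.7 CPM in SCADD (SD, n = 3 each), and fell by 0.85 on the log2 scale (SE 0.16 and adjusted p = 0.0115 by edgeR). Cyp2c68, its closest copy among the members, stood at 179, 297 and 230 CPM across WT livers 1 to 3 and at 143, 126 and 104 CPM across SCADD livers 1 to 3. The lowest WT library, replicate 1, was not far above the highest SCADD library. Cyp2c68 averaged 235 ± 59.1 CPM in WT and 124 ± 19.6 CPM in SCADD (SD, n = 3 each), and fell by 0.92 on the log2 scale (SE 0.20 and adjusted p = 0.0205 by edgeR). Both genes lost their call without WT replicate 2 (adjusted p = 0.0559 for Cyp2c67 and 0.101 for Cyp2c68) and without WT replicate 3 (adjusted p = 0.0627 and 0.0637). Reads that fit either copy are left out of unique counts, so the split between them is uncertain.

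Cyp2c40, an arachidonic acid hydroxylase gene from the same group of copies, held few unique reads, and whether it was called turned on the counting of shared reads and on the filter. WT livers 1 to 3 gave 15, 41 and 14 unique counts of it, and SCADD livers 1 to 3 gave 10, 6 and 2. RSEM, which divides reads among the genes they could come from, gave 308, 415 and 434 expected counts in WT and 164, 159 and 123 in SCADD for the same replicates. By either count the SCADD libraries were all lower than the WT libraries. With unique counts the log2 fold change was -1.69 (SE 0.60 and adjusted p = 0.124 by edgeR), and -0.89 (SE 0.51 and adjusted p = 0.430 by edgeR) without WT replicate 2, which held the most counts. With RSEM counts it was -1.07 (SE 0.19 and adjusted p = 0.00966 by edgeR). With unique counts and no filter on low counts it was also called (adjusted p = 0.00612). The RSEM value depends on how reads shared with Cyp2c67, Cyp2c68 and Cyp2c69 were divided, and the level of Cyp2c40 is therefore uncertain.

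RSEM counts left the other members almost as they were. With them 5 of the 10 members were called lower, against 2.73% of 12953 tested genes, and 0 higher, against 4.18% (edgeR, with 0 also at an unadjusted p under 0.05, and 0 with DESeq2 and limma-voom on unique counts). The log2 fold changes from unique and RSEM counts were -1.97 and -1.99 for Cyp2c70, -1.23 and -1.23 for Cyp2c54, -0.85 and -0.84 for Cyp2c67, and -0.92 and -0.95 for Cyp2c68.

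**Figure D2:**
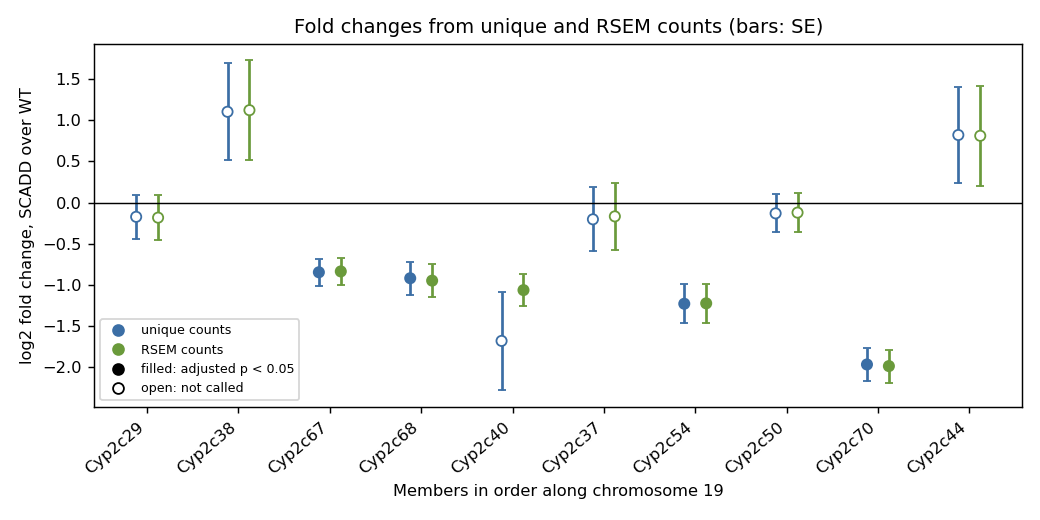
Log2 fold change of SCADD over WT for each member in chromosome order, from unique counts (blue) and RSEM counts (green), with SE bars and filled points for an adjusted p under 0.05. The 2 values lie close together for every member but Cyp2c40, at -1.69 and -1.07.

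Unique counts and RSEM counts differed most for Cyp2c40, the member with the largest share of windows found in other copies. They also differed for Cyp2c38, which shares none at 100 bases. Cyp2c69, not a member, shares 36.3% of its windows and went the other way from Cyp2c40. It had 36, 16 and 14 unique against 16.2, 4.70 and 10.9 RSEM counts in WT replicates 1 to 3. In SCADD replicates 1 to 3 it had 11, 14 and 6 against 3.25, 7.27 and 2.17. How RSEM divided reads among these copies was not tested. Unique counts of Cyp2c40 came to 1.62% to 9.87% of its RSEM counts over the 6 libraries. For Cyp2c67 they were 90.3% to 92.0% and for Cyp2c68 90.1% to 92.6%. For Cyp2c50, Cyp2c54, Cyp2c37, Cyp2c29, Cyp2c44 and Cyp2c70 unique counts exceeded RSEM counts, with group means of 106% to 122%. The excess was largest for Cyp2c38, at 133% to 144%. Over all 10 members summed the unique counts were 104% to 107% of the RSEM counts, and over all genes 93.4% to 101%. The percentage was 91.8% ± 0.214 in WT and 90.9% ± 0.580 in SCADD for Cyp2c67 (SD, n = 3 each). For Cyp2c68 it was 90.4% ± 0.270 in WT and 91.9% ± 0.732 in SCADD. The groups did not overlap for either copy, and the differences went in opposite directions. For Cyp2c70 the percentage was 120% ± 2.06 in WT and 122% ± 1.03 in SCADD, and the groups overlapped. Reads on the opposite strand were 0.0235% to 0.0593% of the members' unique counts.

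**Figure D3:**
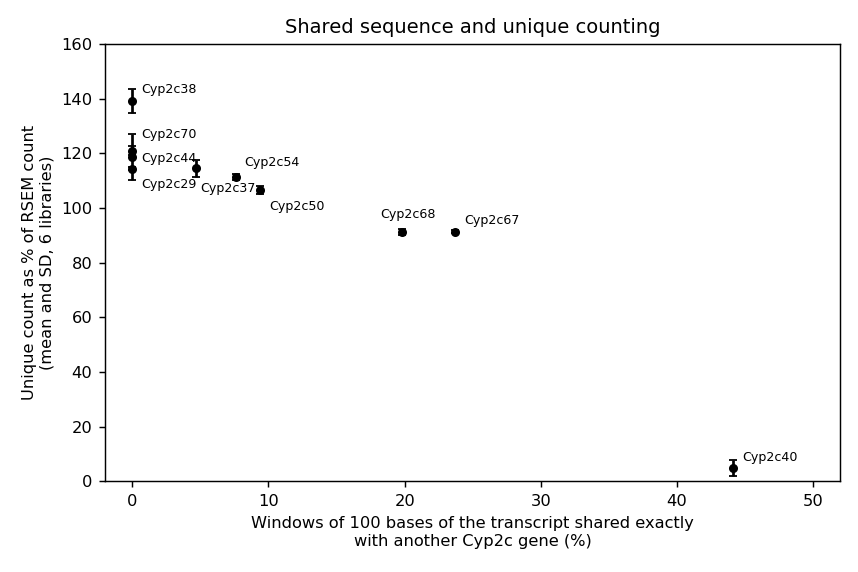
Unique count as a percentage of RSEM count (mean and SD over 6 libraries) against the share of windows of 100 bases of each member's transcript that occur unchanged in another Cyp2c gene. Cyp2c40, with 44.1% of windows shared, lies far below the other members.

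Of the members that did not pass the test, Cyp2c29, Cyp2c50 and Cyp2c37 had close group means. Cyp2c29, an arachidonic acid epoxygenase and among the most abundant members, stood at 787, 1052 and 899 CPM across WT livers 1 to 3 and at 726, 1180 and 522 CPM across SCADD livers 1 to 3. SCADD replicates 2 and 3 were the highest and the lowest of all 6 libraries. Its log2 fold change was -0.17 (SE 0.27 and adjusted p = 0.758 by edgeR). Cyp2c50, another epoxygenase, had 332, 345 and 395 CPM in WT and 255, 464 and 259 CPM in SCADD in the same order, with a log2 fold change of -0.13 (SE 0.23 and adjusted p = 0.792 by edgeR). Cyp2c37, an arachidonic acid hydroxylase, had 124, 157 and 87.8 CPM in WT and 71.99, 176 and 72.6 CPM in SCADD, with a log2 fold change of -0.20 (SE 0.39 and adjusted p = 0.816 by edgeR). SCADD replicate 2 was the highest of the 6 libraries for all 3 genes, and SCADD replicates 1 and 3 were lower than every WT library for each of them.

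Cyp2c38 stood at 53.98, 109 and 26.0 CPM across WT livers 1 to 3 and at 142, 189 and 74.9 CPM across SCADD livers 1 to 3. Replicate 2 was highest and replicate 3 lowest in both groups, and the highest WT library exceeded the lowest SCADD library. Its log2 fold change of 1.11 had an SE of 0.59 (edgeR adjusted p = 0.345), and without WT replicate 2 it was 1.76 (SE 0.47 and adjusted p = 0.120 by edgeR). Cyp2c39, its closest copy and known as a retinoic acid hydroxylase, had 170, 407 and 107 CPM in WT and 442, 440 and 231 CPM in SCADD, with a log2 fold change of 0.70 (SE 0.53 and adjusted p = 0.504 by edgeR), and 1.42 (SE 0.33 and adjusted p = 0.0571 by edgeR) without WT replicate 2. The WT libraries kept the same order for both genes. Cyp2c44, an epoxygenase, stood at 6.62, 5.60 and 5.26 CPM across WT livers 1 to 3 and at 5.38, 20.5 and 4.90 CPM across SCADD livers 1 to 3. SCADD replicate 2 alone stood apart. Its log2 fold change was 0.82 (SE 0.58 and adjusted p = 0.477 by edgeR), and -0.18 (SE 0.20) without that library.

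Cyp2c54 and Cyp2c50 lie next to each other on opposite strands, and their ratio was chosen after its values were seen, so it is given with no test. In TPM, a share of all transcripts corrected for length, the level of Cyp2c54 over that of Cyp2c50 was 2.34, 2.50 and 2.26 in WT replicates 1, 2 and 3. In SCADD replicates 1, 2 and 3 it was 1.11, 1.10 and 1.09. The SCADD libraries gave nearly the same ratio although the level of each gene alone differed widely among them, as the 139 to 363 TPM of Cyp2c54 and the 128 to 331 TPM of Cyp2c50 show. From unique counts the ratio was 2.54, 2.72 and 2.38 in WT and 1.20, 1.19 and 1.16 in SCADD.

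**Figure D4:**
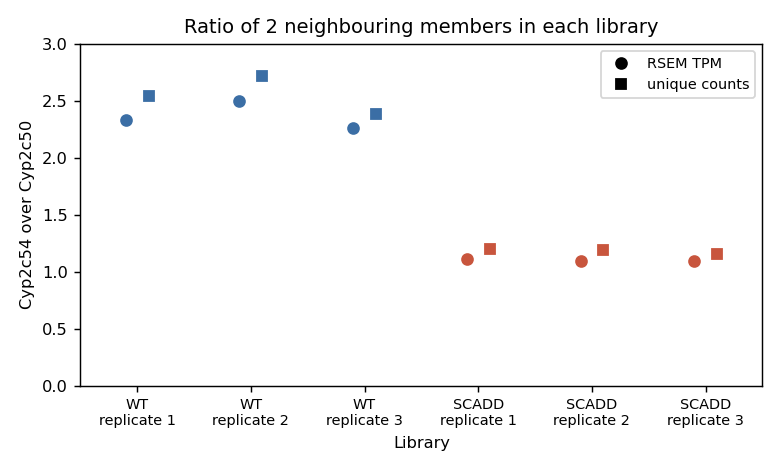
Ratio of Cyp2c54 to Cyp2c50 in each library from RSEM TPM (circles) and from unique counts (squares), with WT in blue and SCADD in red. WT ratios lie between 2.26 and 2.72 and SCADD ratios between 1.09 and 1.20.

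Per length, Cyp2c67 had the highest level in WT livers, at 696 ± 43.5 TPM (SD, n = 3), followed by Cyp2c54 at 543 ± 7.16 and Cyp2c29 at 529 ± 65.2 TPM. The ranges of Cyp2c54 and Cyp2c29 overlapped. Cyp2c50 (230 ± 9.83 TPM), Cyp2c68 (180 ± 40.7 TPM), Cyp2c70 (117 ± 26.0 TPM) and Cyp2c37 (70.02 ± 20.96 TPM) came next. The ranges of Cyp2c50 and Cyp2c68 overlapped through WT replicate 2, and those of Cyp2c70 and Cyp2c37 also overlapped. At the low end were Cyp2c38 (18.1 ± 12.0 TPM), Cyp2c40 (10.9 ± 2.27 TPM), which overlapped, and Cyp2c44 (3.14 ± 0.680 TPM). In SCADD livers Cyp2c29 had the highest mean, 469 ± 257 TPM, above Cyp2c67 at 373 ± 47.7, Cyp2c54 at 230 ± 118 and Cyp2c50 at 209 ± 107 TPM, whose ranges overlapped. Cyp2c68 followed at 91.8 ± 27.0, Cyp2c37 at 62.4 ± 44.1, Cyp2c38 at 39.9 ± 22.3 and Cyp2c70 at 28.3 ± 4.05 TPM. In this order each of these 4 overlapped the next of them. Cyp2c44 (5.61 ± 5.51 TPM) and Cyp2c40 (5.12 ± 0.777 TPM) were lowest and overlapped.

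Summed over the 10 members the level was 2260, 2535 and 2394 TPM in WT replicates 1, 2 and 3 and 1440, 2143 and 962 TPM in SCADD replicates 1, 2 and 3. TPM is a share of the whole, and the major urinary protein genes took 3.23% to 4.16% of all TPM in WT and 7.37% to 14.8% in SCADD libraries. Their part in the lower Cyp2c sum was not tested. Within the sum, Cyp2c54 made up 21.7% to 23.7% in WT and 13.1% to 17.0% in SCADD, and Cyp2c70 3.83% to 5.52% in WT and 1.39% to 2.46% in SCADD. Cyp2c29 made up 20.8% to 23.8% in WT and 24.2% to 34.6% in SCADD. Cyp2c50 made up 8.69% to 10.2% in WT and 11.8% to 15.4% in SCADD. None of these 4 shares overlapped between the groups. Nor did those of Cyp2c38 (0.290% to 1.21% in WT and 1.77% to 2.87% in SCADD) and Cyp2c44 (0.103% to 0.169% and 0.190% to 0.557%). The shares are parts of the same sum, so a higher share need not be a higher level. In TPM, Cyp2c29 and Cyp2c50 overlapped between the groups. Cyp2c67 ranged from 26.4% to 31.2% in WT and from 17.8% to 33.4% in SCADD, so its share overlapped between the groups.

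**Figure D5:**
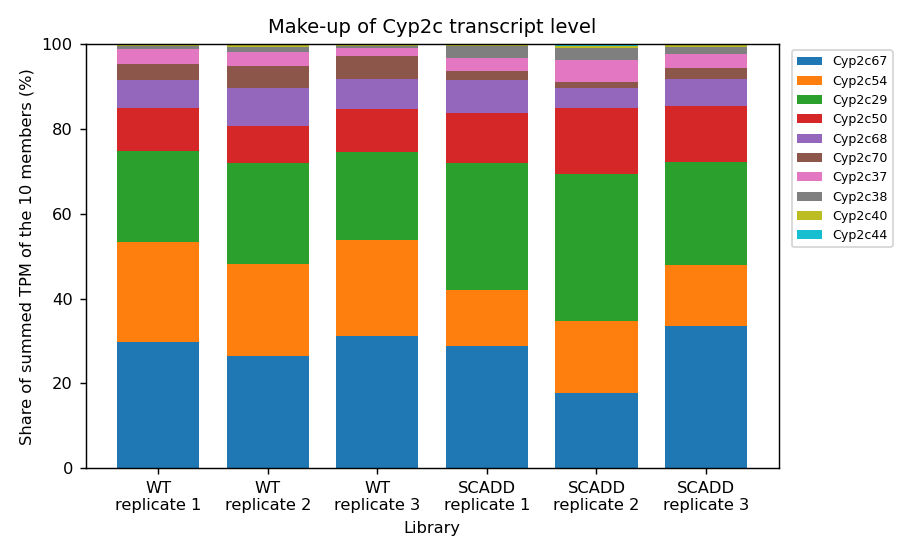
Share of each member in the summed TPM of the 10 members for each library, as stacked bars from 0 to 100%. The bands of Cyp2c54 and Cyp2c70 are narrower in all 3 SCADD libraries, and the band of Cyp2c67 is narrowest in SCADD replicate 2, at 17.8%.

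Of the other 5 Cyp2c paralogues on chromosome 19, all but Cyp2c39, with 2840 to 10842 unique counts per library, had few unique counts. Cyp2c39 and Cyp2c69 passed the filter on low counts, and 0 of these 2 were called by edgeR, DESeq2 or limma-voom, or had an unadjusted p under 0.05. Cyp2c69, the copy nearest to Cyp2c67 in coding sequence, had 6 to 36 unique counts per library and a log2 fold change of -0.76 (SE 0.43 and adjusted p = 0.330 by edgeR). Cyp2c55 had 5 to 10, Cyp2c65 0 to 5 and Cyp2c66 0 to 1 unique counts per library.

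Of the 14 other tested genes between and beside the members, 12 were not called. Pdlim1, a LIM domain protein gene just beyond Cyp2c70, fell by 0.86 on the log2 scale (SE 0.23 and adjusted p = 0.0481 by edgeR). The 12 not called were Noc3l, Tbc1d12 and Hells before the cluster, Cyp2c39 and Cyp2c69 within it, Gm16470 after it, and Abcc2, Dnmbp, Cpn1, Erlin1, Chuk and Cwf19l1 around Cyp2c44. Their log2 fold changes ran from -0.76 for Cyp2c69 to 0.70 for Cyp2c39.

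Among genes that supply P450 enzymes with electrons and haem, 3 of 7 tested rose by edgeR, against 4.22% of all tested genes. The list's median was 0.44 on the log2 scale. By edgeR 0 fell, against 2.80% of all tested genes. At an unadjusted p under 0.05, with DESeq2 and with limma-voom 0 fell as well. Alas1, which starts haem synthesis, stood at 171, 122 and 114 CPM across WT livers 1 to 3 and at 286, 293 and 281 CPM across SCADD livers 1 to 3. The groups stood well apart, with a log2 fold change of 1.08 (SE 0.17 and adjusted p = 0.00498 by edgeR). Por, the oxidoreductase that feeds electrons to P450 enzymes, rose by 0.61 (SE 0.14 and adjusted p = 0.0302 by edgeR) and the cytochrome b5 gene Cyb5b by 0.68 (SE 0.16 and adjusted p = 0.0325 by edgeR) on the log2 scale. Por lost its call on leaving out WT liver 1 or 2 or SCADD liver 1 (adjusted p 0.0935 to 0.149), and Cyb5b on leaving out SCADD liver 2 or any WT liver (0.0564 to 0.124).

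Among transcription factors of hepatic P450 genes 2 of 22 rose and 0 fell by edgeR, with 3 lower at an unadjusted p under 0.05 and 0 lower with DESeq2 or limma-voom. The list's median log2 fold change was 0.12. Over all tested genes 4.22% were called higher and 2.80% lower by edgeR. Nr1i3, which encodes the xenobiotic receptor CAR, stood at 145, 171 and 199 CPM across WT livers 1 to 3 and at 315, 369 and 326 CPM across SCADD livers 1 to 3. Every SCADD library exceeded every WT library, with a log2 fold change of 0.97 (SE 0.16 and adjusted p = 0.00617 by edgeR). Rora, a nuclear receptor, rose by 0.58 (SE 0.15 and adjusted p = 0.0415 by edgeR), a call lost with upper-quartile scaling (0.0533) and without any library but SCADD replicates 2 and 3 (0.0692 to 0.141). Hnf4a, the gene of the receptor whose motif is shown above, was taken after its values were seen and had a log2 fold change of 0.44 (SE 0.17 and adjusted p = 0.147 by edgeR).

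Growth hormone signalling and sex-bias regulators include 2 genes that rose of 11 tested, and 0 that fell (edgeR, unadjusted p under 0.05, DESeq2 and limma-voom alike), with a median log2 fold change of 0.09. Zhx2, a liver repressor gene known to carry a defect in BALB_cJ, stood at 0.0724, 0.219 and 0.113 CPM across WT livers 1 to 3 and at 3.43, 4.20 and 2.54 CPM across SCADD livers 1 to 3 (log2 fold change 4.65, SE 0.39 and adjusted p = 0.000105 by edgeR). The WT libraries were near 0 and all SCADD libraries were well above them. Trim24, a nuclear receptor cofactor gene, rose by 1.45 (SE 0.30 and adjusted p = 0.0234 by edgeR) but was not called on leaving out WT liver 1 or 3 or SCADD liver 1 or 2 (0.0678 to 0.0968). Of 10 male-biased genes 3 fell and 2 rose (median -0.31). The shares over all tested genes, for both lists, were 2.80% lower and 4.22% higher. Hsd3b5, a steroid reductase gene, fell by 2.57 (SE 0.25 and adjusted p = 0.000317 by edgeR), Selenbp2, which encodes a selenium-binding protein, by 2.80 (SE 0.35 and adjusted p = 0.00207 by edgeR) and Cyp7b1, an oxysterol hydroxylase gene, by 2.06 (SE 0.34 and adjusted p = 0.0101 by edgeR), while Susd4, a complement regulator gene, rose by 2.22 (SE 0.34 and adjusted p = 0.00357 by edgeR). Selenbp2 lost its call without SCADD replicate 3 (0.0578). Among female-biased genes, the acyl-CoA thioesterase gene Acot3 rose by 4.17 (SE 0.20 and adjusted p = 2.32e-06 by edgeR).

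Of 30 other tested P450 genes of families 1 to 3, 3 rose and 1 fell (median log2 fold change 0.20). Of all tested genes 4.22% were called higher and 2.80% lower. Cyp2d40 rose from 16.7 ± 5.09 to 56.8 ± 12.8 CPM (SD, n = 3 each), a log2 difference of 1.76 (SE 0.23 and adjusted p = 0.00208 by edgeR). Cyp1a2, a pericentral enzyme of caffeine breakdown, rose by 0.94 (SE 0.22 and adjusted p = 0.0297 by edgeR), and Cyp2r1, a vitamin D hydroxylase, by 0.93 (SE 0.21 and adjusted p = 0.0234 by edgeR), while Cyp3a13 fell by 0.69 (SE 0.16 and adjusted p = 0.0246 by edgeR). Each of the last 3 lost its call without 1 of several libraries (for Cyp1a2 SCADD liver 3 or any WT liver, 0.0528 to 0.138, for Cyp2r1 SCADD liver 2 or any WT liver, 0.0504 to 0.0890, for Cyp3a13 WT liver 2 or 3 or SCADD liver 1, 0.0757 to 0.114).

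In epoxide and arachidonate metabolism 2 of 17 genes rose and 1 fell (median 0.0023), beside 4.22% higher and 2.80% lower over all tested genes. The fatty acid hydroxylase genes Cyp4a10 and Cyp4a12a rose by 1.12 (SE 0.27 and adjusted p = 0.0322 by edgeR) and 0.63 (SE 0.15 and adjusted p = 0.0301 by edgeR), and Cyp4f13 fell by 0.73 (SE 0.14 and adjusted p = 0.0119 by edgeR). Cyp4a10 lost its call on leaving out WT liver 2 or 3 or SCADD liver 1 or 3 (0.0557 to 0.159), Cyp4a12a on leaving out any library but SCADD liver 3 (0.0558 to 0.134), and Cyp4f13 on leaving out WT liver 3 or SCADD liver 1 (0.0525 to 0.0570). Ephx2, whose enzyme hydrolyses the epoxides that Cyp2c enzymes make, was taken after its values were seen and had a log2 fold change of 0.12 (SE 0.16 and adjusted p = 0.708 by edgeR).

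Around Cyp2c70, 0 of 15 bile acid synthesis genes rose (edgeR, unadjusted p under 0.05, DESeq2 and limma-voom alike). Over all tested genes 4.22% were called higher by edgeR. The list had a median log2 fold change of -0.15. By edgeR 3 of the 15 fell, against 2.80% of all tested genes. They were Cyp7b1, Cyp39a1, another oxysterol hydroxylase (-2.83, SE 0.46 and adjusted p = 0.0174 by edgeR), and Slc27a5, the bile acid-CoA ligase (-1.30, SE 0.19 and adjusted p = 0.00285 by edgeR). Slc27a5 stood at 1265, 1253 and 1229 CPM across WT livers 1 to 3 and at 538, 598 and 389 CPM across SCADD livers 1 to 3, with no overlap. Cyp39a1 lost its call without SCADD replicate 2 (adjusted p = 0.127) and without the filter (0.0912).

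Over the 6 libraries, the genes outside the members whose log2 CPM followed Cyp2c67, the member with the highest mean TPM, most closely were Snora57, Kdelr2, Cd200r3, Fam207a and Npm3-ps1, with Pearson correlations of 0.993 to 0.996. In all 194 of 13488 genes had a correlation over 0.95. This is a description of 6 libraries that fall into 2 groups and share their scaling. A constant of 0.5 was added to the CPM before taking logs. Snora57 (mean 0.571 CPM in WT and 0.227 in SCADD) and Cd200r3 (0.596 and 0.261) lay near that constant. The correlations of these low genes are therefore uncertain. None of the 5 named genes was called (edgeR adjusted p 0.0644 to 0.1503). For Kdelr2 the log2 fold change was -0.38 (SE 0.12), smaller in size than that of Cyp2c67.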

How the data were processed

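Poly(A) RNA libraries from 6 male mouse livers (3 WT, 3 SCADD) were read with STAR 2.7.6a and RSEM 1.3.3 on GRCm38, according to the tools and builds named per the submitters' processing notes. Which annotation release was used is not given in the sources used here. The authors deposited STAR read counts per gene, which leave out multi-mapped reads, and RSEM expected counts, which divide them, with TPM scaled by length and to the same total in each library. Nothing in the labels says that the authors filtered these values. The deposited FPKM values were not used.

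Column 4 of the STAR tables, with 96.8% to 97.3% of stranded reads, was used, and the 4 summary rows were left out. Multi-mapped reads made up 10.1% to 13.1% of reads. Of 55487 gene IDs 55141 matched GENCODE M21 (GRCm38). Genes passing filterByExpr (minimum count 10) were TMM-scaled and then fitted in edgeR 4.0.16 (robust quasi-likelihood, group as the only term, all 6 libraries) in R 4.3.3, with Benjamini-Hochberg adjustment over 13498 genes and a threshold of 0.05. SE is the log2 fold change over the square root of F, an approximation. All 10 members passed the filter. RSEM counts were rounded before testing. The design text calls the animals biological replicates. Within groups the replicates differed beyond counting noise (chi-square over degrees of freedom 36.5 to 135). Coding identity was from global alignment of the longest annotated coding sequences. The test was checked on simulated data.

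The members and lists were chosen with earlier results of these data known. Named were all members, Acads, the Cyp2c paralogues, neighbouring tested genes, up to 4 called genes per list with the smallest p (2 where none was called) and the 5 genes most like the most abundant member. Some genes that this rule takes are not reported here. In the list of paralogues Cyp2c23 is the same gene as Cyp2c44 and was counted once, as a member. Other settings tried were scaling by RLE or upper quartile, leaving out the filter or asking for 1 CPM in 3 libraries, DESeq2 1.42.0, limma-voom (limma 3.58.1), no robust estimation, RSEM counts, the unstranded column, the replicate block and leaving out each library.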

Additional observations from a re-analysis of the deposited data

How the results depend on the processing

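Of 159 member values over up to 16 alternatives, 143 kept their direction and their side of the threshold, 6 lost a call, 3 gained one and 7 changed sign. All 6 losses came from leaving out a library. Over such fits the log2 values ran from -0.56 to 0.065 for Cyp2c29, -0.78 to 0.013 for Cyp2c37, -0.48 to 0.013 for Cyp2c50, -0.18 to 1.15 for Cyp2c44, 0.73 to 1.76 for Cyp2c38 and -2.13 to -0.89 for Cyp2c40. The sign changes were in members that were not called: without SCADD replicate 3, Cyp2c29 had 0.065, Cyp2c37 0.012 and Cyp2c50 0.013, without SCADD replicate 1, Cyp2c37 had 0.00068 and Cyp2c50 0.0043, without WT replicate 2, Cyp2c37 had 0.013, and without SCADD replicate 2, Cyp2c44 had -0.18 on the log2 scale. Leaving out libraries gave 1 to 4 members lower and 0 higher (1 without WT replicate 2, 2 without WT replicate 3), 240 to 909 genes higher and 155 to 681 lower over all genes, and 7 to 17 higher genes over the lists, with fewer samples in each fit. Without a filter 950 genes were higher and 752 lower, 14 list genes were lower, and Cyp2c40 was called (adjusted p = 0.00612). With 1 CPM in 3 libraries Cyp2c40 was not tested. Upper-quartile scaling gave 470 genes higher and 482 lower, against 569 and 378 with TMM. The share of Cyp2c67 in WT was 24.9% of summed unique counts. Numbers of replicates pair no samples by the labels, and same-numbered deviations correlated at 0.0606, 0.0372 and 0.107. With the replicate block 668 genes were higher and 480 lower, 1 member was higher, Cyp2c38 (log2 fold change 1.24, adjusted p = 0.000801), and Cyp2c39 was also called (0.0488). Deviations of different numbers correlated at 0.0612, -0.127, -0.0175, -0.0171, -0.0266 and -0.0793. The first of these is WT replicate 2 with SCADD replicate 1, above its correlation with its own number (0.0372). The causes of these changes were not tested. Of 398 values of other named genes, 41 lost and 1 gained a call. Low unique counts, 2 to 41 per library, limit Cyp2c40 and Cyp2c69, and such counts leave out reads that also match other copies.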
